A study of Rattus norvegicus with 6 samples.

Results

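The genes described here store, take up and export iron. They are the 10 genes Fth1, Ftl1, Tfrc, Slc40a1, Slc11a2, Aco1, Ireb2, Ncoa4, Steap3 and Acsl4, chosen by name from the 34156 rows of a gene count table of rat fibroblast-like synoviocytes. All 10 names were found. For 8 of them there were enough counts to test, with at least 10 counts in at least 3 of the 6 libraries, as for 13614 rows in all. Fth1 and Slc40a1 were listed at 0 in every library.

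Fibroblast-like synoviocytes line the joint and take part in the joint damage of rheumatoid arthritis. The cells were purchased rat cells of this type (RA-FLS), labelled wild type and grown in culture. Both groups received 10 ng/mL TNF-α, an inflammatory cytokine. The TNF-α group (3 libraries) received nothing else, and the TNF-α+EMO group (3 libraries) also received 80 μmol/L emodin (EMO), an anthraquinone of rhubarb. The labels give day 5 as the time of both groups, whereas the methods of the study give a shorter incubation, and no untreated cells were sequenced. The question of the comparison is what EMO changed in cells stimulated with TNF-α.

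Most cells take up iron bound to transferrin through the transferrin receptor (Tfrc). In the endosome the iron is reduced by a metalloreductase such as Steap3 and passes into the cytosol through the transporter Slc11a2 (DMT1). Surplus iron is held in shells of ferritin heavy (Fth1) and light (Ftl1) chains, is freed again when Ncoa4 carries ferritin to the lysosome, and leaves the cell through ferroportin (Slc40a1). The iron regulatory proteins Aco1 (IRP1) and Ireb2 (IRP2) bind stem-loops in several of these mRNAs when iron is scarce, which blocks translation of ferritin and ferroportin and protects the Tfrc mRNA. Acsl4 activates polyunsaturated fatty acids, which other enzymes then build into membrane lipids. Iron can oxidise such lipids in the form of cell death named ferroptosis.

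The libraries held 16813322 to 17794455 counts on genes. Counts were scaled by TMM to a common library size (normalized counts) and tested with the quasi-likelihood method of edgeR. P-values were adjusted by the Benjamini-Hochberg method over all 13614 rows, and a call is an adjusted p under 0.05. The difference between the groups was broad. Of all rows tested, 80.9% were called, 39.4% higher and 41.4% lower with EMO, and in 82.9% the normalized counts of the groups did not overlap. Of 10 listed synoviocyte markers in the table, Pdpn was at 3 counts or fewer in every library, and Thy1 and Prg4 stayed below 1 CPM (counts scaled to the size of the library). The summed marker level was between 11519 and 12556 CPM with TNF-α alone and between 2028 and 2166 CPM with EMO, with Col1a1 at 6114 to 7169 and 204 to 211 CPM. Cd55 went the other way, from 7.60 to 10.5 CPM with TNF-α alone to 36.5 to 48.1 CPM with EMO. Of 8 macrophage markers, Ptprc, Adgre1, Marco and Cd163 were at 3 counts or fewer in every library, and the sum was 72.5 to 78.1 CPM and 41.4 to 44.3 CPM, mostly Cd14 (62.1 to 68.5 and 26.2 to 30.1 CPM), while Cd68 was at 8.45 to 10.1 and 13.7 to 15.1 CPM. The sums were at most 4.59 CPM for 4 endothelial and 0.978 CPM for 4 erythroid markers. They were 601 to 660 and 111 to 127 CPM for 5 epithelial markers, nearly all of it Krt8, and 60.7 to 66.1 and 141 to 143 CPM for 4 hepatocyte markers, nearly all of it transferrin (Tf). How far the lower sum of synoviocyte markers bears on the iron genes was not tested. In these bulk cultures, fewer cells of a kind and less RNA per cell cannot be told apart.

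Among the iron genes with counts, ferritin light chain had the highest level and the largest rise. The table holds it under several names. The row named Ftl1 lies on chromosome 5 from 152325871 to 152326778 (Rnor_6.0, plus strand) between Cd52 and Ubxn11, and its 908 bases span the locus without a gap. RefSeq (assembly GRCr8) places Ftl1 on chromosome 1 between Gys1 and Bax, and names the copy between Cd52 and Ubxn11 LOC100360087. In the table the names are the other way round. The row between Gys1 and Bax (chromosome 1, 101448346 to 101449829, minus strand, 552 bases of gene length in a span of 1484) is named LOC100360087 and described as light chain 1-like. It is called the Ftl1 locus here.

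The Ftl1 locus had normalized counts of 18263, 16469 and 16722 with TNF-α alone and of 78393, 94860 and 91858 once EMO was added. Every library with EMO lay far above every library without it. The level rose 5.15-fold, or 2.37 on the log2 scale (standard error 0.08, 95% interval 2.19 to 2.54, adjusted p = 4.1e-10). It was the row with the 7th highest count in each TNF-α+EMO library, and ranked 68 to 81 in the TNF-α libraries.

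The row named Ftl1 had normalized counts of 90.2, 106 and 143 with TNF-α alone and of 472, 673 and 840 once EMO was added. The groups were apart here too, at a much lower level, with a rise of 2.55 on the log2 scale (adjusted p = 3.5e-05, standard error 0.25). LOC100362384 on chromosome 13 and LOC100359668 on chromosome 6 rose by 2.61 (standard error 0.45) and 2.14 (standard error 0.23). Both are described as ferritin light chain copies, and their length equals their span. Reads of near-identical copies can be divided by the counting, so the value of any single copy is uncertain. Of 5 rows described as ferritin light chain, 4 had counts, and the Ftl1 locus held 98.0% to 98.9% of their sum with TNF-α alone and 97.7% to 98.7% with EMO. The summed light chain was 0.105% ± 0.00495 of all counts in the TNF-α group and 0.503% ± 0.0488 in the TNF-α+EMO group (SD, n = 3 each). The sum of all light chain rows, put in place of the row named Ftl1, rose by 2.37 (adjusted p = 4.2e-10).

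**Figure D1:**
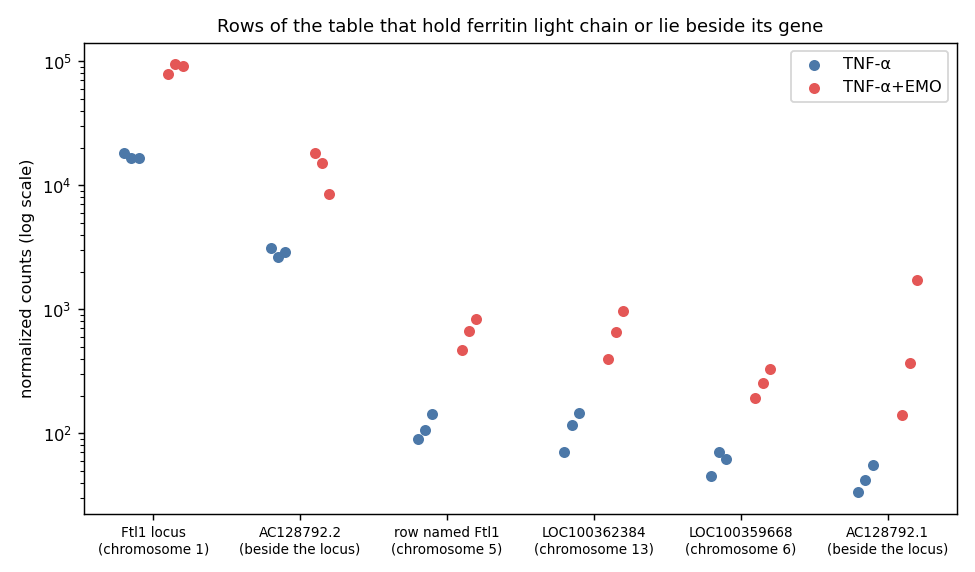
Normalized counts on a log axis for the rows described as ferritin light chain and 2 short rows beside the Ftl1 locus, with a point per library (TNF-α left, TNF-α+EMO right of each pair). All 6 rows lie higher with EMO, and AC128792.1 spreads from 140 to 1727 within the TNF-α+EMO group.

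A pair of short rows lies beside or within the Ftl1 locus. AC128792.2, listed as a pseudogene on the plus strand (chromosome 1, 101449902 to 101450071), had normalized counts of 3104, 2617 and 2870 with TNF-α alone and of 18176, 15016 and 8427 once EMO was added. AC128792.1, listed as a miRNA that overlaps the locus, had 33.3, 41.9 and 55.5 against 140, 365 and 1727. The TNF-α+EMO libraries thus differed among themselves in these rows by more than in the Ftl1 locus, and replicate 3 was the lowest of them in AC128792.2 and the highest in AC128792.1. AC128792.1 lies on the same strand as the locus, so strand cannot tell their reads apart where they overlap. AC128792.2 lies outside the locus, and how its counts relate to those of the locus was not tested. The strand setting of the counting is not given in the sources used here.

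Ferritin heavy chain gave no measurement. Fth1 (chromosome 1, 226030938 to 226033228, plus strand) was listed at 0 in all 6 libraries, as was the other row described as ferritin heavy chain. The interval of Fth1 lies wholly within that of Best1 on the opposite strand in the deposited coordinates, whereas RefSeq places Best1 next to Fth1 without overlap. Best1, a chloride channel gene, had 54.2 to 115 normalized counts. A 0 in this row says nothing of the amount of heavy chain mRNA, and whether the overlap bears on it was not tested. The ratio of heavy to light chain could therefore not be computed.

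Ncoa4, the receptor that delivers ferritin to autophagosomes, lies on chromosome 16 from 8302950 to 8323293. It had normalized counts of 2666, 2876 and 2851 with TNF-α alone and of 4806, 4740 and 4073 once EMO was added. The groups did not overlap, and Ncoa4 rose 1.62-fold, or 0.70 on the log2 scale (standard error 0.07, 95% interval 0.53 to 0.86, adjusted p = 5.3e-06).

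Tfrc, the receptor for transferrin (chromosome 11, 71397383 to 71419223), had normalized counts of 1507, 1588 and 1760 with TNF-α alone and of 2372, 2261 and 1844 once EMO was added. The highest TNF-α library came close to the lowest TNF-α+EMO library. Tfrc rose 1.33-fold, or 0.42 on the log2 scale (standard error 0.10, 95% interval 0.20 to 0.63, adjusted p = 0.0025). Without replicate 3 of the TNF-α+EMO group it was 0.54, the highest of 14 alternative ways of processing. The lowest of them was 0.29. Tfrc kept its call in all 14, with an adjusted p of up to 0.040.

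The promoters of Ncoa4 and Tfrc, which rose, and of Steap3, which fell furthest of the called iron genes with at least 100 normalized counts, are shown so that their letters can be compared. Each is the 250 bases before the transcription start from RefSeq (GRCr8), 5′ to 3′ on the strand of the gene. They lie at chr16:7401541-7401790 (plus strand), chr11:81690319-81690568 (minus strand) and chr13:33944357-33944606 (minus strand). Capitals mark ACGTG, the core of the hypoxia response element, TGANNNNGC, the core of the antioxidant response element, and TATAAA, the TATA box, each searched on both strands.
Ncoa4: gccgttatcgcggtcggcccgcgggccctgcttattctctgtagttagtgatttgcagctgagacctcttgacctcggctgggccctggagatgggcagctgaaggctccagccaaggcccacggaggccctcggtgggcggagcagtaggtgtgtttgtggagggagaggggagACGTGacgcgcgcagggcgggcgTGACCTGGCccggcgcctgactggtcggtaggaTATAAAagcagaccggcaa
Tfrc: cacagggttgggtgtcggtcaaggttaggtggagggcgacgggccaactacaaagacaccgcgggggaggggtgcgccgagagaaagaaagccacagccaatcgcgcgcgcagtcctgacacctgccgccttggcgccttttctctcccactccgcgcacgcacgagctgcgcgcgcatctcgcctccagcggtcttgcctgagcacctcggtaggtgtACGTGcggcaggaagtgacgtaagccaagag
Steap3: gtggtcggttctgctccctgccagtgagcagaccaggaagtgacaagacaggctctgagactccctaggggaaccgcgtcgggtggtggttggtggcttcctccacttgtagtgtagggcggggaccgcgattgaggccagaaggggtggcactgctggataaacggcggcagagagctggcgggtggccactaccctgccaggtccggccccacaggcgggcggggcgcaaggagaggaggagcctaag

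RefSeq windows were found for 8 of the 10 genes, 9 windows in all since Slc11a2 has 2, and those of Fth1 and Ftl1 were not matched. ACGTG was found in 2 of the 9, beginning 75 bases before the start of Ncoa4 and 31 bases before that of Tfrc, against 16.6% of all 33469 windows. TGANNNNGC was found in 3 of the 9, those of Ncoa4, Acsl4 and 1 of the Slc11a2 windows, against 34.7% of all. The GC box GGGCGG was found in 7 of the 9, against 30.5% of all. TATAAA was found only in that of Ncoa4, 19 bases before the start, against 12.9% of all. The only motifs that overlapped each other were the GC boxes of Acsl4, and a match is a description of the letters only.

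Steap3 and Slc11a2, the endosomal steps after Tfrc, moved the other way. Steap3, the ferrireductase of the transferrin cycle (chromosome 13, 36257112 to 36290531), had normalized counts of 2539, 2601 and 2417 with TNF-α alone and of 1052, 1034 and 1052 once EMO was added. The values within each group were close, and Steap3 was 2.41-fold lower with EMO, or -1.27 on the log2 scale (standard error 0.06, 95% interval -1.40 to -1.13, adjusted p = 6.3e-09).

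Slc11a2, the importer of ferrous iron (chromosome 7, 142025815 to 142063212), had normalized counts of 2722, 2894 and 2588 with TNF-α alone and of 1407, 1430 and 1414 once EMO was added. It was 1.93-fold lower with EMO, or -0.95 on the log2 scale (standard error 0.06, 95% interval -1.09 to -0.81, adjusted p = 9.7e-08). The table does not separate its isoforms with and without an iron-responsive stem-loop.

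**Figure D2:**
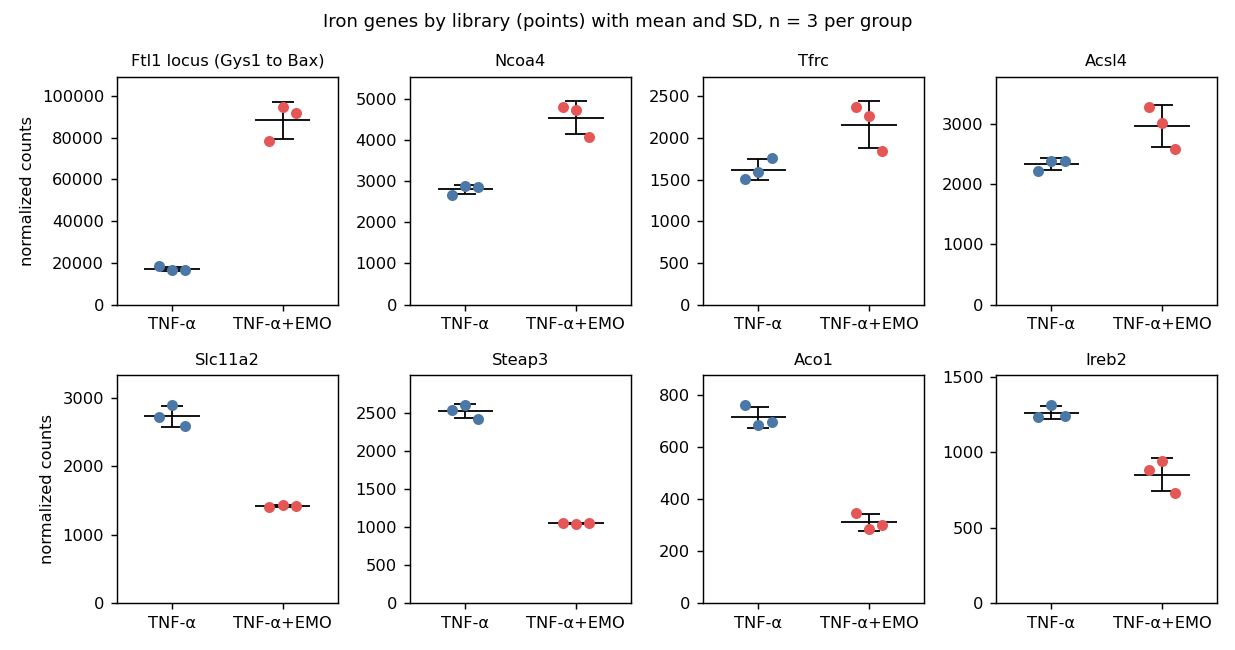
Normalized counts (linear axes from 0) of the Ftl1 locus and 7 further iron genes, with a point per library and lines for the mean and SD (n = 3 per group). The Ftl1 locus, Ncoa4, Tfrc and Acsl4 lie higher in the TNF-α+EMO libraries, and Slc11a2, Steap3, Aco1 and Ireb2 lie lower. The groups do not overlap in any panel, as in 82.9% of all rows tested.

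Slc40a1, the exporter ferroportin, is also divided over rows. The row of that name (chromosome 9, 52820683 to 52830457) was listed at 0 throughout. A second row with the same gene description, NEWGENE_620180 (chromosome 9, 52894365 to 52912293, between Slc40a1 and Asnsd1), had raw counts of 38, 24 and 26 with TNF-α alone and of 7, 2 and 3 once EMO was added. The counts were low in both groups and lower in each library with EMO. The summed counts, scaled by library size after TMM, were 6.99-fold lower with EMO. The exact 95% interval of 3.81 to 14.0 covers counting error only. By edgeR the log2 fold change was -2.77 (adjusted p = 2.3e-04, standard error 0.47). Per kilobase of gene length, this row had 8.86 ± 2.32 normalized counts in the TNF-α group, the lowest level of the iron genes with counts.

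The mRNAs of both iron regulatory proteins fell. Aco1, a cytosolic aconitase that binds mRNA once it has lost its iron-sulfur cluster (chromosome 5, 56425024 to 56481218), had normalized counts of 760, 685 and 695 with TNF-α alone and of 347, 283 and 299 once EMO was added. It was 2.30-fold lower with EMO, or -1.20 on the log2 scale (standard error 0.10, 95% interval -1.42 to -0.98, adjusted p = 6.0e-07).

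Ireb2, which is removed by the ubiquitin ligase subunit Fbxl5 when iron is ample (chromosome 8, 59420123 to 59501118), had normalized counts of 1238, 1314 and 1242 with TNF-α alone and of 882, 941 and 731 once EMO was added. The fall was smaller than that of Aco1, 1.48-fold, or -0.57 on the log2 scale (standard error 0.09, 95% interval -0.78 to -0.36, adjusted p = 1.9e-04). Fbxl5 itself was not called, with 1253 ± 103 and 1468 ± 220 normalized counts (SD, n = 3 each) and an adjusted p of 0.078. Its log2 fold change of 0.23 ran from 0.09 (adjusted p = 0.53) without replicate 3 of the TNF-α group to 0.37 (adjusted p = 5.9e-05) without replicate 3 of the TNF-α+EMO group. With library totals as the only scaling it was 0.12 (adjusted p = 0.36), and the adjusted p was 0.024 when replicate numbers formed blocks.

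Acsl4 (chromosome X, 113596239 to 113659944) had normalized counts of 2211, 2381 and 2388 with TNF-α alone and of 3278, 3013 and 2585 once EMO was added. It had the smallest difference of the iron genes tested, 1.27-fold higher with EMO, or 0.35 on the log2 scale (standard error 0.09, 95% interval 0.16 to 0.54, adjusted p = 0.0030). Without replicate 1 of the TNF-α group the adjusted p was 0.058. Within the TNF-α+EMO group, replicate 3 was the lowest library for Tfrc, Ncoa4, Acsl4 and Ireb2.

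**Figure D3:**
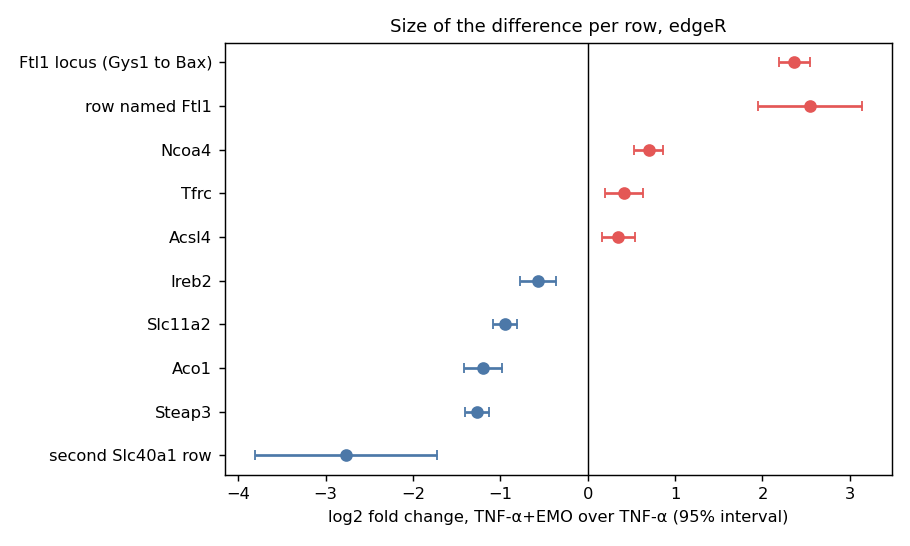
Log2 fold change (TNF-α+EMO over TNF-α) by edgeR with its 95% interval for each row. The Ftl1 locus and the row named Ftl1 lie above 2, Ncoa4, Tfrc and Acsl4 between 0 and 1, and the second Slc40a1 row has the lowest value, -2.77.

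Of the 8 iron genes tested, 4 were called higher (Ftl1, Ncoa4, Tfrc and Acsl4) and 4 lower (Steap3, Aco1, Slc11a2 and Ireb2). The background is 80.9% of all rows, so a call in each of them does not set these genes apart. At an absolute log2 fold change over 1, 1 was higher and 2 were lower, 3 of 8, where 47.3% of all rows passed, 19.5% higher and 27.8% lower. The median log2 fold change of the 8 was -0.11, and that of all rows tested was -0.01. When the Ftl1 locus and the second Slc40a1 row stood for those names, a choice made after the values were seen, 4 were called higher and 5 lower.

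Compared per kilobase of gene length, the order of levels changed with EMO below the Ftl1 locus, which stood first in both groups with 31071 ± 1759 and 160091 ± 15887 normalized counts per kilobase (SD, n = 3 each). In the TNF-α group, Steap3 (840 ± 31.2) and Ncoa4 (809 ± 33.2) came next and overlapped. They were followed by Slc11a2 (520 ± 29.1), Acsl4 (470 ± 20.3), Ireb2 (374 ± 12.6) and Tfrc (338 ± 27.1), of which the last pair overlapped, and then by Aco1 (206 ± 11.9) and the row named Ftl1 (125 ± 29.9). In the TNF-α+EMO group, Ncoa4 (1313 ± 117) stood above Acsl4 (598 ± 70.6), Tfrc (451 ± 58.2), Steap3 (349 ± 3.59), Slc11a2 (269 ± 2.20), Ireb2 (252 ± 32.0) and Aco1 (89.4 ± 9.47). Only Slc11a2 and Ireb2 overlapped among these neighbours, and the row named Ftl1 (729 ± 203) overlapped Acsl4. Tfrc thus lay below Slc11a2 and Steap3 in the TNF-α group and above both in the TNF-α+EMO group.

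A ratio of counts per kilobase within a library does not depend on scaling between libraries. The pairs were chosen after the values were seen. The Ftl1 locus had 92.5 ± 11.6 counts per count of Tfrc in the TNF-α group and 361 ± 72.8 in the TNF-α+EMO group (SD, n = 3 each), a ratio 3.87-fold higher. The ratio of Tfrc to Slc11a2 went from 0.653 ± 0.0819 to 1.67 ± 0.217, and that of Ireb2 to Aco1 from 1.82 ± 0.149 to 2.84 ± 0.493. The ratio of Tfrc to the second Slc40a1 row went from 40.1 ± 11.0 to 459 ± 266, on few counts. In all 4 ratios the groups did not overlap. The two-sided exact permutation p was 0.1 for each, raw and adjusted over the 4, the smallest that 3 libraries against 3 can give. Because the pairs were picked on their values, neither the lack of overlap nor this p tests a difference, and the adjustment does not cover that choice.

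The genes whose profile over the 6 libraries was most like that of Tfrc, by Euclidean distance of centred log2 CPM among genes with a mean of at least 100 normalized counts, were Tmed7 (0.10), AABR07026291.1 (0.11) and Cdc5l (0.11). Fth1 and Slc40a1, at 0, have no profile.

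The wider machinery of iron was described with 7 lists of genes, of which 121 rows were tested beside the 10 iron genes. Of these, 67 were higher, 42 lower and 12 not called, with a median log2 fold change of 0.35, against -0.01 for all rows. Of all rows, 80.9% were called, 39.4% higher and 41.4% lower, so that a list in which most genes were called is not set apart by that. Of 18 genes of iron and ferritin transport, 11 were lower and 6 higher, with a median of -1.68. Cp, ceruloplasmin, the ferroxidase that works with ferroportin, stood at 4115 ± 269 normalized counts with TNF-α and 186 ± 21.2 with EMO (SD, n = 3 each), lower by a log2 fold change of -4.47 (adjusted p = 1.7e-11, standard error 0.10). It overlaps Hps3, which had up to 654 counts. The metalloreductase Steap2 and the second ferroxidase Heph fell, with log2 fold changes of -2.82 and -2.36. Slc39a8, which also carries iron that is not bound to transferrin, rose from 22.2 ± 6.95 to 217 ± 23.8 normalized counts (log2 fold change 3.29, adjusted p = 1.9e-07). Mcoln1, a cation channel through which iron leaves the lysosome, rose by 2.50, and Slc25a37 (mitoferrin-1), which brings iron into mitochondria, by 1.57. Tf, Slc39a14, Scara5 and Lcn2 were picked out after their values were seen. Tf, the ligand of Tfrc, rose by 1.27, whereas the importer Slc39a14 fell by 1.94. Scara5, a receptor for ferritin, was called lower, at 89.8 ± 9.25 and 2.06 ± 2.73 normalized counts (SD, n = 3 each). Lcn2, which binds iron-laden siderophores, had 2124 ± 189 and 2230 ± 94.3 normalized counts and was not called (adjusted p = 0.40).

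Of 14 regulators of iron balance tested, 8 were lower and 4 higher, beside 41.4% and 39.4% of all rows, with a median of -0.84. The lower ones were led by Bmp2 (log2 fold change -5.77), Hfe (-3.21), a partner of Tfrc, and Bmp6 (-2.93). Bmp2 and Bmp6 are known as inducers of the liver hormone hepcidin, and the gene for hepcidin, Hamp, was at 3 counts or fewer in every library. The higher ones included Bach1 (0.81), a repressor of ferritin and Hmox1, and Hif1a (0.50). Epas1 was listed at 0 in every library.

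Of 19 genes of heme synthesis and breakdown, 11 were higher and 7 lower, beside 39.4% and 41.4% of all rows. The list's median was 0.41. Hmox1, the heme oxygenase that frees iron from heme, stood at 374 ± 40.4 normalized counts with TNF-α and 1699.7 ± 113 with EMO (SD, n = 3 each), higher by 2.18 on the log2 scale (adjusted p = 3.1e-09, standard error 0.10). Alas1, the first enzyme of heme synthesis, rose by 2.12 and the porphyrin transporter Abcb6 by 1.97. Tspo fell (log2 fold change -1.25), as did Blvra (-1.06), a biliverdin reductase.

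Of 31 rows of iron-sulfur cluster assembly, 21 were higher, 3 lower and 7 not called, where 39.4% of all rows were higher and 41.4% lower, with a median of 0.71. Hspa9, the mitochondrial chaperone of the pathway, rose by 2.62 on the log2 scale, Glrx3 by 2.04 and the cluster carrier Nfu1 by 1.83. Among the lower genes was Fdxr (-0.54), a ferredoxin reductase, which lost its call without replicate 2 of the TNF-α+EMO group (adjusted p = 0.062). Both rows named Nfs1, the cysteine desulfurase, divided counts unevenly between libraries and are uncertain.

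Of 18 genes tied to ferroptosis, 9 were higher and 9 lower, beside 39.4% and 41.4% of all rows, with a median of 0.13. Slc7a11, the cystine importer, rose by 2.22 (adjusted p = 7.7e-09), Sat1 by 2.04 and Chac1, which breaks down glutathione, by 5.60, from 135 ± 4.22 to 6556 ± 555 normalized counts (SD, n = 3 each). Of the acyl-CoA synthetases related to Acsl4, Acsl3 and Acsl1 fell, with log2 fold changes of -2.82 and -1.84, whereas Acsl5, picked out after its values were seen, rose by 0.77 (adjusted p = 3.5e-06). Among the lower genes was also Lpcat3 (-1.47), which esterifies the products of Acsl4 into phospholipids. Lpcat3 overlaps Emg1, which had up to 764 counts. Gpx4, the peroxidase that restrains ferroptosis, had means of 3.59 and 8.85 normalized counts, too few to test, and overlaps Sbno2, which had up to 2239 counts.

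Of 11 genes of ferritinophagy, 7 were higher and 4 lower, beside 39.4% and 41.4% of all rows, with a median of 0.84. Atg13 rose by 1.74 on the log2 scale, Tax1bp1, which takes Ncoa4 and ferritin to the lysosome, by 1.53 and Atg101 by 1.49. Herc2, a ubiquitin ligase that targets Ncoa4, fell (-0.76), as did Ulk1 (-0.62) and Atg9a (-0.46). Of 11 genes of Tfrc endocytosis and recycling, 9 were higher, 1 lower and 1 not called, with a median of 0.72. The GTPase Rab5a of early endosomes rose by 1.68, the retromer subunit Vps35 by 1.40 and Rab11a of recycling endosomes by 1.18, while Rab4a fell (-0.61). Clathrin heavy chain (Cltc) was not called (log2 fold change 0.00, standard error 0.11).

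**Figure D4:**
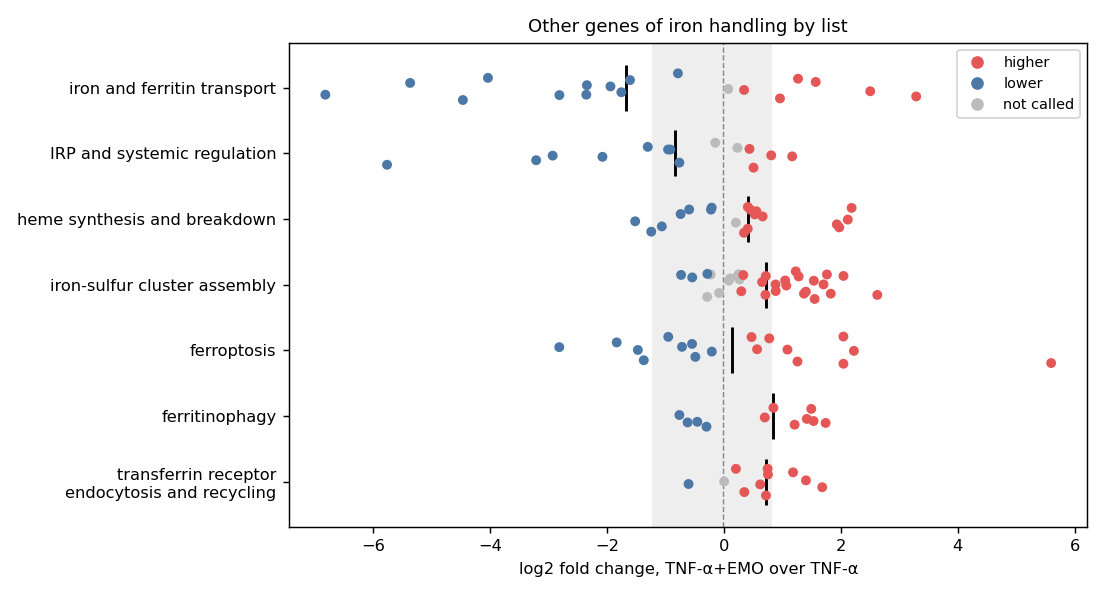
Log2 fold change (TNF-α+EMO over TNF-α) of each tested gene by list, with a point per row (higher, lower or not called), the list's median as a black bar and the quartiles of all tested rows, -1.21 to 0.80, as a grey band. The transport list has its median below the band at -1.68, and the ferritinophagy list has its median just above it at 0.84.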

How the data were processed

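Poly(A)-selected paired-end libraries of 6 cultures (3 per group, biological replicates in the study's methods) were sequenced. Per the submitters' processing notes, the tools were FastQC, Trimmomatic and HISAT2 and the genome build was Rnor_6.0. The counting program, the annotation version and the strand and multi-mapping settings are not given in the sources used here. The authors deposited raw counts per gene, which were used for every result. The FPKM values the authors deposited, and their columns of group means, fold changes and p-values, were not used.

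Rows reaching 10 counts in 3 or more libraries entered the fit by edgeR 4.0.16 (R 4.3.3), a robust quasi-likelihood model after TMM scaling, with Benjamini-Hochberg adjustment over all rows tested. The standard error is the log2 fold change divided by the square root of F. DESeq2 1.42.0 and limma 3.58.1 were alternatives. P-values by edgeR judge the difference between the groups against the spread between these cultures. Code was tested on simulated data. Within groups, libraries differed by more than sampling noise (chi-square per gene 4.75 to 25.0). The pairs with replicate 3 of the TNF-α+EMO group were the highest, at 25.0 (with replicate 1) and 16.0 (with replicate 2). Replicates 1 and 2 of that group gave 6.66, and the pairs of the TNF-α group 4.75 to 5.87.

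The genes and lists were chosen with earlier results of these data known. Named genes are the 10 iron genes, up to 3 highest and 3 lowest called genes per list with a mean of at least 100 normalized counts, and Hmox1, Gpx4, Slc7a11, Fbxl5 and Cp. Some genes that this rule takes are not reported here. Gene names and promoters are from RefSeq (GRCr8), whose coordinates were not mixed with Rnor_6.0. The exact interval of the second Slc40a1 row and the floors of 3 counts cover counting error only. The intervals by edgeR rest on its standard error and include the spread between these cultures. With 3 libraries against 3, an exact permutation test cannot give a p below 0.1.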

Additional observations from a re-analysis of the deposited data

How the results depend on the processing

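With an absolute log2 fold change over 1 added to the threshold, 19.5% of all rows were higher and 27.8% lower. Of the iron genes, 1 was then higher and 2 lower in place of 4 and 4. Of the 121 tested rows of the wider lists, 36 were higher and 22 lower in place of 67 and 42. Under the other alternatives (DESeq2, limma-voom, other scalings and filters, the summed ferritin rows, the rows by RefSeq neighbours and description, and leaving out each library), these counts stayed within 1.5 times of the main ones. With the replicate number as a block, 10806 of all 13614 rows were called. In that fit 4 iron genes were higher and 4 lower, and 66 and 39 of the wider lists, with Fbxl5 gained among the named genes. Same-numbered libraries did not deviate together (correlations of 0.0193, -0.00683 and 0.0676), so the block is only an alternative. Of 51 named rows, 47 kept direction and call under every alternative run, and none of 711 values reversed. Scaling by library totals alone moved the median of all rows by -0.11, and Acsl4 and Tfrc were then 0.23 and 0.30. The second Slc40a1 row had too few counts for the stricter filter and for fits without a TNF-α library. The ratio of Fth1 to Ftl1 and its alternatives were not run because Fth1 was listed at 0. Low counts limit the second Slc40a1 row, and left Gpx4 untested.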
